A study of Mus musculus with 30 samples.

Results

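The genes described here are 45 genes of astrocytes, of which 24 were assigned to the resting (homeostatic) cell and 21 to reactive astrocytes. This assignment was made for the report, with earlier results of these data known, and contrasts between the sets depend on it. The genes were chosen by gene symbol, and all probes that the array's annotation assigns to these symbols were taken, which gave 64 probes for 43 of the genes. A probe was tested when its detection p-value, the chance of its signal arising from the negative controls, fell below 0.05 in 15 or more of the 30 arrays. This left 41 of the 12588 tested probes, and they measured 34 of the 45 genes, 21 of the 24 homeostatic and 13 of the 21 reactive ones.

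Hippocampal RNA was read on single-colour bead arrays, 1 per mouse, from 30 male mice of the outbred NMRI stock, all aged 12 weeks. All mice had been phenotyped with phenytoin, a sodium channel blocker used against seizures, under 6 Hz stimulation. The resistant group held the 15 mice classed as not responding to phenytoin, and 15 mice classed as responding formed the responder group. The groups were therefore formed by the outcome of the test and not by an assigned treatment, and no mouse without the test was analysed here.

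Astrocytes buffer potassium and water, clear glutamate, exchange metabolites with neurons and engulf synapses and debris. After seizures or injury they become reactive: they make more of the intermediate filament proteins Gfap, vimentin and nestin, in part through the transcription factor Stat3 downstream of the interleukin 6 receptor family, and secrete acute-phase and complement proteins. Changes in astrocyte channels and connexins are among the features described in epileptic hippocampus.

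The labelled tissue carried astrocyte RNA in every library, since the brightest probe of each of the astrocyte markers Gfap, Aqp4 and Aldh1l1 was detected on 30 of 30 arrays. Arrays correlated with each other between 0.970 and 0.990 over the tested probes. RNA of the choroid plexus, the secretory epithelium that lies against the hippocampus, varied among the mice. Of its 16 listed markers 11 were measured, their mean log2 signal ran from 5.29 to 9.56 in resistant and from 5.73 to 10.23 in responder mice, and all 11 lay lower in resistant mice, with a median log2 difference of -0.87. Of 12 oligodendrocyte markers 10 were measured and 9 of these lay higher in resistant mice, their mean running from 10.55 to 11.44 in resistant and from 10.02 to 11.05 in responder mice. All 8 measured neuron markers lay higher in resistant mice, with a median log2 difference of 0.04. Of 6 measured ependymal markers 5 lay lower (median difference -0.25), and of 5 measured endothelial markers 3 lay lower and 2 higher (median difference -0.01). In the same test 1 oligodendrocyte marker (higher) and 1 ependymal marker (lower) had an unadjusted p under 0.05, with 0 neuron and 0 endothelial markers. Of all genes 7.61% did, and 54.9% lay higher in resistant mice. Markers of a cell type were read in the same tissue pieces, so their signs are not separate observations. In whole tissue, fewer astrocytes and less RNA per astrocyte cannot be told apart.

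No astrocyte gene passed the test between the groups. With p-values adjusted by the Benjamini-Hochberg method over all 12588 probes in limma, 0 of the 41 astrocyte probes were under 0.05, against a background of 0.00794% of all probes. At an unadjusted p under 0.05, 3 astrocyte probes lay higher in resistant mice, where 4.25% of all probes did, and 2 lay lower, where 3.3% of all probes did. Together these are 12.2% of the astrocyte probes, and the background in either direction was 7.55%.

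The homeostatic and reactive genes differed little as groups. With the brightest tested probe standing for each gene, the median log2 difference, resistant minus responder, was 0.02 over the 21 homeostatic genes and 0.03 over the 13 reactive genes, beside 0.01 over all 8841 measured genes. Over probes, 26 of the 41 astrocyte probes had a positive difference, beside 53.8% of all probes. Of the homeostatic genes 13 had a positive and 8 a negative difference, and of the reactive genes 8 had a positive and 5 a negative one, where 54.9% of all genes had a positive one. At an unadjusted p under 0.05 stood 4 of the 21 homeostatic genes (Mertk and Megf10 higher, Ndrg2 and Clu lower) and 0 of the 13 reactive genes, against 7.61% of all genes. The 95% interval of a gene's log2 difference had a median half-width of 0.17 for the homeostatic and 0.23 for the reactive genes, so smaller differences in reactive genes were harder to see.

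**Figure D1:**
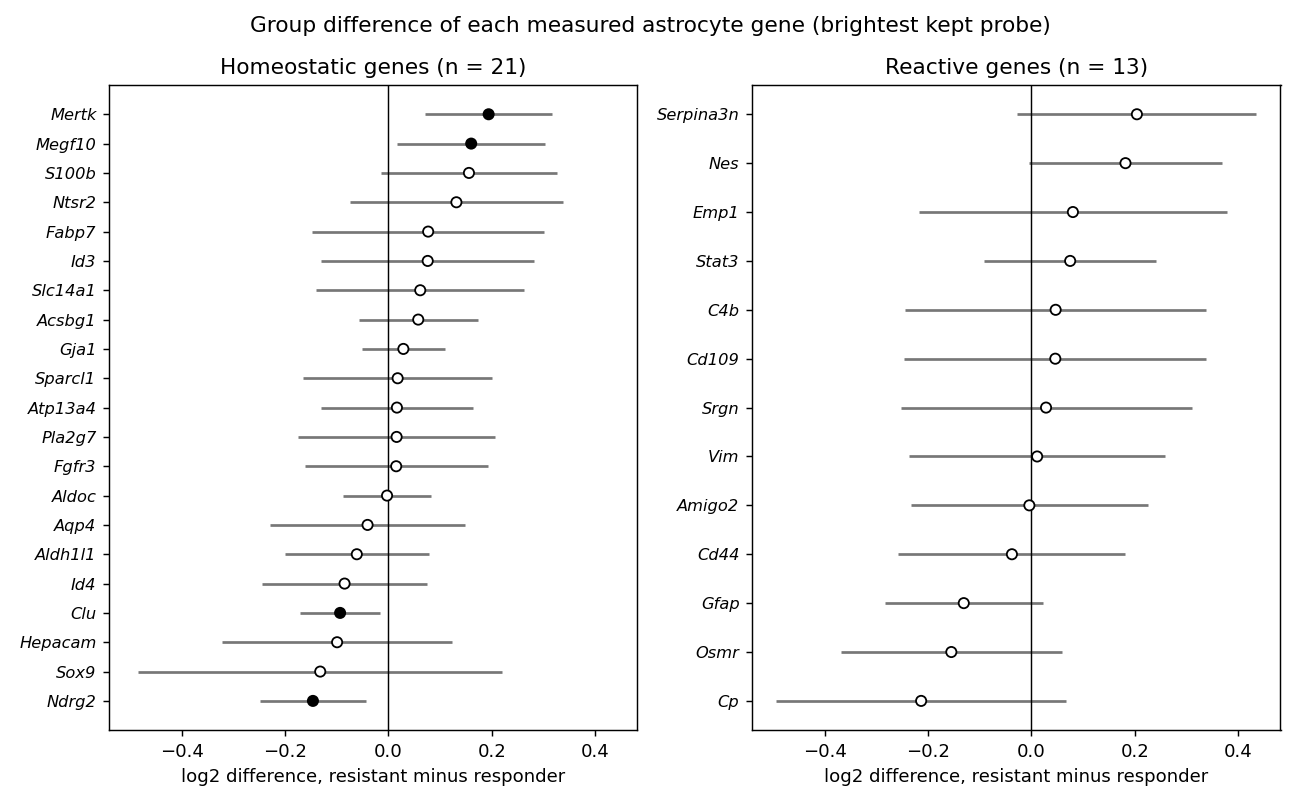
Log2 difference between resistant and responder mice (x axis) for each measured homeostatic (left, 21) and reactive (right, 13) astrocyte gene, by its brightest tested probe. Points are differences of means of 15 and 15 mice, lines are 95% intervals, and filled points have an unadjusted p under 0.05. The 4 filled points, Mertk, Megf10, Ndrg2 and Clu, are all homeostatic genes, and the reactive differences run from -0.21 for Cp to 0.20 for Serpina3n.

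Mertk and Megf10 are the engulfment receptors of the homeostatic set, a receptor tyrosine kinase and a scavenger-type receptor through which mouse astrocytes take up synapses. Both lay higher in resistant mice. The log2 signal of Mertk (probe ILMN_2714638) ran from 7.69 to 8.47 in resistant mice, with a median of 8.06, and from 7.65 to 8.03 in responders, with a median of 7.84. The groups overlapped, but 11 of 15 resistant mice were above the responder median and 0 of 15 responders were above the resistant median. Resistant mouse 13 was the highest, at 8.47 against 8.20 for the next mouse. The 15 resistant mice averaged 8.03 ± 0.20 (SD) and the 15 responders 7.84 ± 0.11 (SD), a log2 difference of 0.19 ± 0.06 (SE) or 1.14-fold (95% interval 1.05 to 1.25), with a limma unadjusted p of 0.0029 and an adjusted p of 0.397. Mertk is also made by microglia, and the 9 measured microglial markers had a median log2 difference of 0.01, with 5 positive. Their mean ran from 7.89 to 8.25 in resistant mice (median 8.10) and from 7.85 to 8.41 in responders (median 8.00). For this mean 12 of 15 resistant mice were above the responder median and 5 of 15 responders above the resistant median. The part of microglial RNA in the Mertk difference was not tested.

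Megf10 (probe ILMN_2840286) ran from 7.87 to 8.39 in resistant mice, with a median of 8.18, and from 7.56 to 8.32 in responders, with a median of 8.04. The responders reached lower, the highest values of both groups were close, and 11 of 15 resistant mice lay above the responder median. The log2 difference was 0.16 ± 0.07 (SE), with a limma unadjusted p of 0.0297 and an adjusted p of 0.631. Without responder 1, the mouse with the lowest value, the difference was 0.13 and the unadjusted p 0.0623, and without responder 5 the unadjusted p was 0.0573. Megf10 tended to be lower in mice with more choroid plexus RNA (Pearson r = -0.41), and with the choroid plexus marker mean as a covariate its unadjusted p was 0.0803.

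Ndrg2, a cytosolic protein of the N-myc downstream regulated family that is abundant in astrocytes, lay lower in resistant mice. Its log2 signal (probe ILMN_3001650) ran from 10.26 to 10.89 in resistant mice, with a median of 10.49, and from 10.46 to 10.77 in responders, with a median of 10.69. Resistant mouse 1 was the highest of all 30 mice, yet only 2 of 15 resistant mice were above the responder median. The log2 difference was -0.15 ± 0.05 (SE), with a limma unadjusted p of 0.0064 and an adjusted p of 0.476.

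Clu encodes clusterin, a secreted chaperone and lipoprotein component. Its signal (probe ILMN_2727153) ran from 13.71 to 14.05 in resistant mice, with a median of 13.84, and from 13.78 to 14.19 in responders, with a median of 13.94. The ranges overlapped over most of their length, with 3 of 15 resistant mice above the responder median. The log2 difference was -0.09 ± 0.04 (SE), with a limma unadjusted p of 0.0185 and an adjusted p of 0.592. Clu varied with the choroid plexus marker mean across mice (Pearson r = 0.39), and with that mean as a covariate its unadjusted p was 0.0517. The part of choroid plexus RNA in the differences of Clu and Megf10 was not tested beyond this covariate.

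Slc14a1, the urea transporter, had 3 tested probes that did not run alike. The dimmest, ILMN_2622915, detected on 17 of 30 arrays, gave a log2 difference of 0.18 with an unadjusted p of 0.0438. The brightest, ILMN_1235006, detected on all 30 arrays, gave 0.06 (unadjusted p = 0.538), and ILMN_1214917 gave -0.05 (unadjusted p = 0.591). The difference therefore rested on a probe near background.

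**Figure D2:**
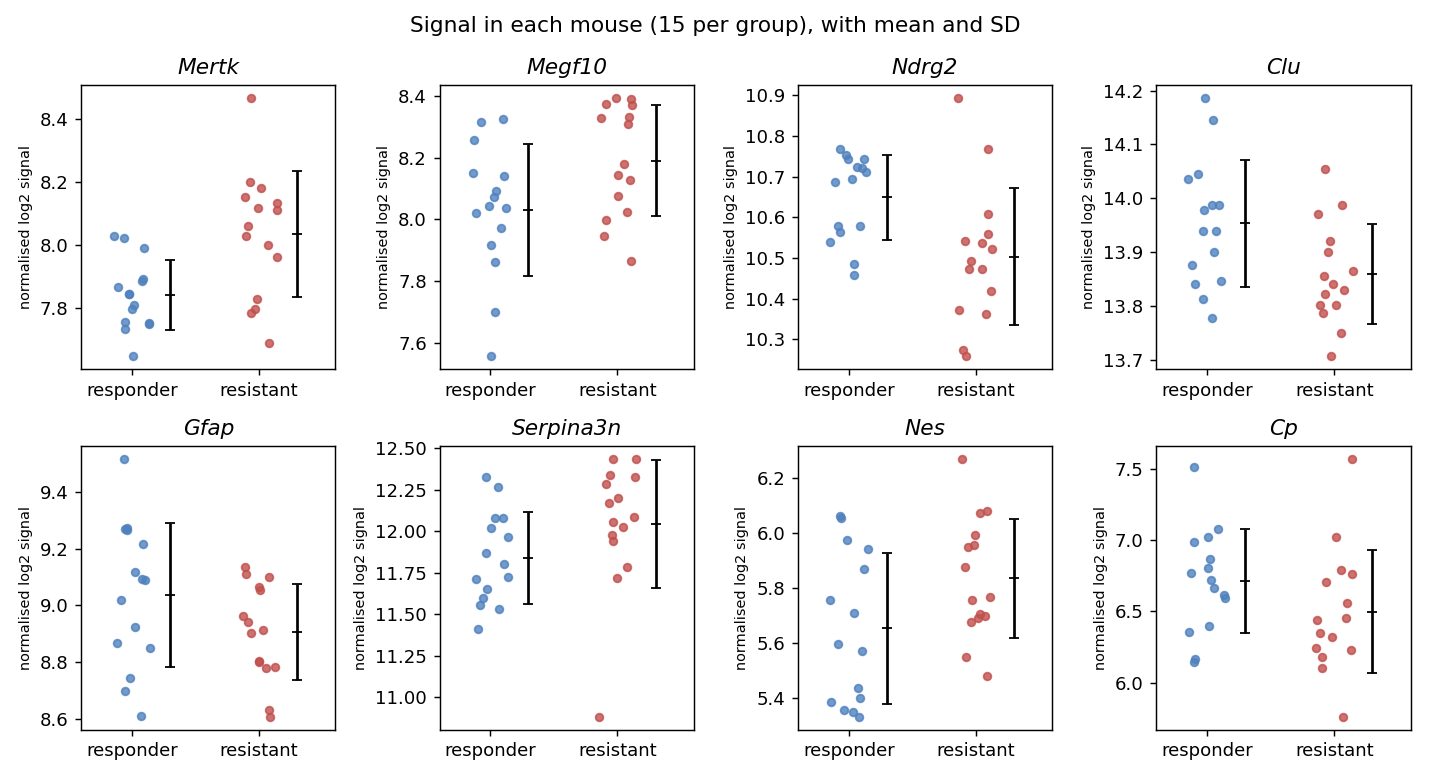
Normalised log2 signal (y axis) in each mouse for 4 homeostatic genes (top row: Mertk, Megf10, Ndrg2, Clu) and 4 reactive genes (bottom row: Gfap, Serpina3n, Nes, Cp), with 15 responders in blue and 15 resistant mice in red. Bars give the mean and SD. The groups overlap in every panel, and resistant mouse 12 stands alone at 10.88 for Serpina3n.

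Among the channels, transporters and junction proteins, no measured gene stood beyond an unadjusted p of 0.05 by its brightest probe, and the 5 differences ran from -0.10 to 0.06. Aqp4, the water channel of astrocyte endfeet, ran from 10.01 to 11.15 in resistant mice (median 10.44) and from 10.02 to 10.93 in responders (median 10.48). The lowest and the highest Aqp4 values were both in resistant mice, numbers 1 and 15, and the group means differed by -0.04 ± 0.09 (SE) on the log2 scale, with an unadjusted p of 0.667. Gja1, the gap junction protein connexin 43 and 1 of the 3 brightest genes of the set with Clu and Aldoc, differed by 0.03 ± 0.04 (SE), with a 95% interval from -0.05 to 0.11. The cell adhesion protein Hepacam differed by -0.10 and the cation ATPase Atp13a4 by 0.02.

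The metabolic enzymes had small differences between the groups, from -0.06 to 0.06 by their brightest probes. Aldh1l1, the folate enzyme used to mark astrocytes, ran from 7.11 to 7.69 in resistant mice (median 7.36) and from 7.15 to 7.72 in responders (median 7.43). The groups covered the same range, and its brightest probe, ILMN_2706906, gave -0.06 (unadjusted p = 0.379), while the other tested probes gave 0.07 and 0.06. The glycolytic enzyme Aldoc differed by -0.003 (95% interval -0.09 to 0.08), the acyl-CoA synthetase Acsbg1 by 0.06 and the lipase Pla2g7 by 0.02.

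None of the other signalling genes and transcription factors of the homeostatic set stood past an unadjusted p of 0.05. S100b, a calcium-binding protein that astrocytes also secrete, averaged 6.34 ± 0.22 (SD) over the 15 resistant mice and 6.19 ± 0.23 (SD) over the 15 responders, a log2 difference of 0.16 (unadjusted p = 0.0711). Ntsr2, the low-affinity neurotensin receptor, differed by 0.13 (unadjusted p = 0.202), the fatty acid binding protein Fabp7 by 0.08 and the receptor Fgfr3 by 0.02. The differences of the transcription regulators Id4, Sox9 and Id3 were -0.08, -0.13 and 0.08, and that of Sparcl1, the secreted matrix protein hevin, was 0.02. Sox9 had the largest SD over mice of the 34 genes, 0.50, and spanned 5.67 in resistant mouse 13 to 7.66 in responder 12.

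The reactive genes began with the filament proteins, whose differences did not share a sign. Gfap (probe ILMN_1214715) ran from 8.61 to 9.14 in resistant mice, with a median of 8.91, and from 8.61 to 9.52 in responders, with a median of 9.09. Both groups started at the same low level, but the 5 highest mice were all responders, and 3 of 15 resistant mice were above the responder median. The resistant mice averaged 8.91 ± 0.17 (SD) and the responders 9.04 ± 0.25 (SD), 15 mice each, a log2 difference of -0.13 ± 0.08 (SE) or 0.913-fold (95% interval 0.821 to 1.02), with a limma unadjusted p of 0.091 and an adjusted p of 0.727. With 1 mouse left out at a time the unadjusted p ran from 0.0323 to 0.181. Among these fits it was under 0.05 only without responder 3 (0.0323) and without responder 10 (0.0448).

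Nes, the nestin of progenitors and reactive astrocytes, lay the other way. It ran from 5.48 to 6.27 in resistant mice (median 5.77) and from 5.33 to 6.06 in responders (median 5.60), and 13 of 15 resistant mice were above the responder median. The log2 difference was 0.18 ± 0.09 (SE), with an unadjusted p of 0.0568 and an adjusted p of 0.681 in limma. Leaving out 1 mouse at a time brought the unadjusted p of Nes under 0.05 for 8 of the 30 mice, and it ran from 0.0272 to 0.106. Vim, vimentin, differed by 0.01 (95% interval -0.24 to 0.26).

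Serpina3n, a secreted protease inhibitor and one of the strongest markers of reactive astrocytes in mice, ran from 10.88 to 12.44 in resistant mice (median 12.09) and from 11.41 to 12.33 in responders (median 11.80). Of the resistant mice 12 of 15 were above the responder median, but resistant mouse 12 was the lowest of all 30, at 10.88 against 11.41 for the next. The log2 difference was 0.20 ± 0.11 (SE), with a limma unadjusted p of 0.082 and an adjusted p of 0.715. Without resistant mouse 12, singled out after its value was seen, it was 0.29, with an unadjusted p of 0.0025 and an adjusted p of 0.448. Over the 30 fits that each left out 1 mouse, the unadjusted p of Serpina3n reached up to 0.137 and was under 0.05 in 3.

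Cp and Osmr lay lower in resistant mice, within the spread. Cp, ceruloplasmin, the copper-carrying ferroxidase, ran from 5.76 to 7.57 in resistant mice (median 6.44) and from 6.14 to 7.51 in responders (median 6.72). The lowest value, in resistant mouse 1, and the highest, in resistant mouse 9, came from the same group, and the log2 difference was -0.21 ± 0.14 (SE), with an unadjusted p of 0.131. Without resistant mouse 9 it was -0.29, with a limma unadjusted p of 0.0245. This was the only 1 of the 30 fits leaving out 1 mouse with an unadjusted p under 0.05, and the highest was 0.245. Osmr, the oncostatin M receptor, differed by -0.16 (unadjusted p = 0.149), with 3 of 15 resistant mice above the responder median.

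The remaining reactive genes had differences between -0.04 and 0.08. Stat3 differed by 0.07 (unadjusted p = 0.367) by its brightest probe, while its other probes gave 0.02 and -0.01. The complement gene C4b differed by 0.05, the hyaluronan receptor Cd44 by -0.04, the proteoglycan Srgn by 0.03, the adhesion protein Amigo2 by -0.004, the membrane protein Emp1 by 0.08 and the GPI-anchored protein Cd109 by 0.05. C4b had a wider spread in responders, with an SD of 0.54 around 7.85, than in resistant mice, with an SD of 0.24 around 7.90, and this difference in spread was not tested.

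The 11 genes without a tested probe include strong reactive markers. Lcn2, lipocalin 2, was detected on 14 of 30 arrays and so fell just short of the limit. Steap4 was detected on at most 6 arrays, Timp1 on 4, Slc4a4 on 3, Aspg and Tgm1 on 1, and S1pr3, Fbln5 and Mlc1 on 0. For these genes the signal was not distinguishable from the negative controls on most arrays. No probe carried the symbols Gjb6 or Ggta1, and these genes were not analysed here.

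Further genes of the same biology were read beside them. Of 47 other astrocyte genes 39 were measured, and at an unadjusted p under 0.05 stood 2 higher in resistant mice (background 4.48%) and 1 lower (background 3.13%), with a median log2 difference of -0.01. They were the oligopeptide transporter Slc15a2 (0.35, unadjusted p = 0.0272), the claudin Cldn10 (0.09, unadjusted p = 0.0365) and the lipid phosphatase Plpp3 (-0.14, unadjusted p = 0.0336), and the metallothionein Mt2 differed by -0.18 (unadjusted p = 0.0524). The glutamate transporters Slc1a2 and Slc1a3 differed by -0.05 and 0.06 and glutamine synthetase, Glul, by 0.22, none past an unadjusted p of 0.05. The potassium channel gene Kcnj10 was not analysed here.

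Of 24 other genes described as reactive 11 were measured, with 0 higher (background 4.48%) and 2 lower (background 3.13%) at an unadjusted p under 0.05 and a median log2 difference of 0.03. The pair were the class I histocompatibility gene H2-D1 (-0.38, unadjusted p = 0.0109, adjusted p = 0.548) and the endotoxin co-receptor Cd14 (-0.33, unadjusted p = 0.0316), which other cells of the tissue also make. H2-T23 differed by -0.39 (unadjusted p = 0.0529) and the filament protein synemin, Synm, by -0.25 (unadjusted p = 0.0945).

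Around Stat3, 6 of 19 pathway genes were measured. Jak2, a kinase that activates Stat3, ran from 7.80 to 8.21 in resistant mice (median 8.01) and from 7.54 to 7.99 in responders (median 7.84), and 0 of 15 responders were above the resistant median. Its log2 difference was 0.19 ± 0.05 (SE), with a limma unadjusted p of 0.0006 and an adjusted p of 0.31, and it was the only 1 of the 6 measured pathway genes past an unadjusted p of 0.05, where 7.61% of all genes were. The feedback inhibitor Socs3, a target of Stat3, differed by -0.12 (unadjusted p = 0.327), the phosphatase Ptpn11 by 0.02 and the kinase Tyk2 by 0.03.

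Averaged within a mouse, both sets were level between the groups. The mean log2 signal of the 21 homeostatic genes was 8.74 ± 0.09 (SD) over the 15 resistant mice and 8.72 ± 0.07 (SD) over the 15 responders. That of the 13 reactive genes was 7.34 ± 0.15 (SD) and 7.33 ± 0.16 (SD) over the same mice. The homeostatic mean minus the reactive mean was 1.39 ± 0.16 (SD) for the resistant group and 1.39 ± 0.14 (SD) for the responders, so that the contrast between the sets did not separate the groups beyond their spread.

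Single mice stood out more than the groups did. Resistant mouse 9 had 12 of 13 reactive genes above the median of all mice, was the highest mouse for 4 of them (Cp, Emp1, Srgn and Vim), and had the highest reactive mean, 7.75 against 7.61 for the next. Resistant mouse 14 also had 12 of 13 reactive genes above the median, and responder 7 had 2 of 13, with the lowest reactive mean, 7.02. Resistant mouse 10 had 19 of 21 homeostatic genes above the median and the highest homeostatic mean, 8.92, and it was also the highest mouse for the oligodendrocyte marker mean, at 11.44. The markers of fibroblasts and meninges, of which 7 of 10 were measured, had a mean of 9.61 in resistant mouse 9, the highest of its group, where that mean ran from 7.66 to 9.61 in resistant and from 7.91 to 10.03 in responder mice.

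The members were only loosely tied to each other across mice. Over all 30 mice the median Pearson r was 0.09 for the 210 pairs of homeostatic genes, 0.07 for the 78 pairs of reactive genes and 0.06 for the 273 mixed pairs. The closest pairs were Emp1 with Vim (r = 0.78) and Cp with Emp1 (r = 0.69). All genes of a mouse share 1 library, so these values are descriptions.

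Gfap was set against each of the other 33 measured genes. Relations with 2 of the 33 passed a permutation test (100000 resamples, two-sided) after Benjamini-Hochberg adjustment. Genes outside the set were not compared with Gfap, so this count has no background share. Gfap and Emp1 had a Pearson r of 0.62 (p = 0.0002, adjusted p = 0.0079) and a Spearman rho of 0.58 (p = 0.0008, adjusted p = 0.0137). Leaving out the 2 mice whose Gfap lay farthest from its median gave r = 0.58, within resistant and responder mice it was 0.64 and 0.70, and within sample numbers 1 to 16 and 17 to 30 it was 0.31 and 0.74.

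Gfap and C4b had a Pearson r of 0.59 (permutation p = 0.0007, adjusted p = 0.0117) and a Spearman rho of 0.62 (permutation p = 0.0003, adjusted p = 0.0099). Without the same 2 mice r was 0.51, within resistant and responder mice 0.68 and 0.64, and within the parts of the sample numbers 0.35 and 0.86. The mice with high Gfap were thus high for Emp1 and C4b in either group, while r was lower among sample numbers 1 to 16 than among 17 to 30 for both genes, a difference that was not tested. The next closest gene, Fgfr3, had r = 0.44 (permutation p = 0.0150, adjusted p = 0.148) and rho = 0.47 (permutation p = 0.0084, adjusted p = 0.0923), and the lowest values were those of Serpina3n (r = -0.15), Atp13a4 (r = -0.13) and Cd44 (r = -0.11).

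**Figure D3:**
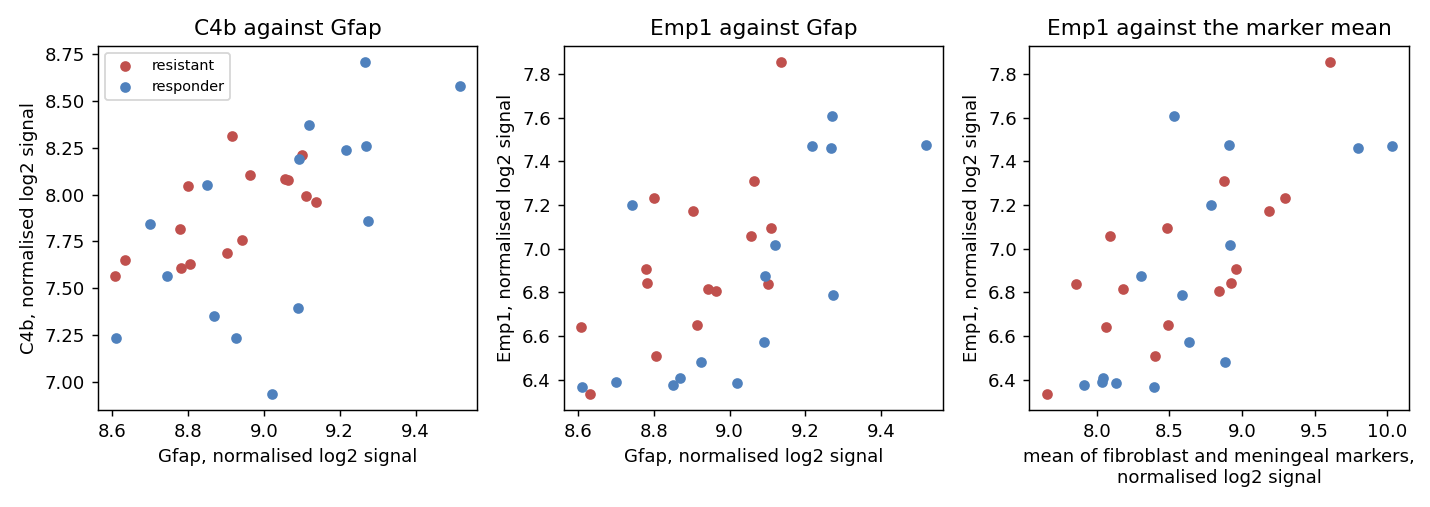
Normalised log2 signal in each of the 30 mice: C4b against Gfap (left), Emp1 against Gfap (middle), and Emp1 against the mean of the fibroblast and meningeal markers (right), with resistant mice in red and responders in blue. Pearson r is 0.59, 0.62 and 0.72 from left to right, and both groups follow each relation.

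Emp1, Cp and Vim also followed the fibroblast and meningeal markers, a comparison chosen after seeing the data. Of 34 relations 3 passed the permutation test after adjustment. Genes outside the set were not compared with this marker mean, so this count too has no background share. Cp had a Pearson r of 0.72 and a Spearman rho of 0.58 with that marker mean (permutation p = 2e-05 and 0.0010, adjusted p = 0.00034 and 0.0178). Emp1 had r = 0.72 and rho = 0.69 (permutation p = 2e-05 and 5e-05, adjusted p = 0.00034 and 0.0017). Vim had r = 0.54 and rho = 0.47 (permutation p = 0.0023 and 0.0105, adjusted p = 0.0258 and 0.0889).

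For these genes the relation held within the groups, with r from 0.51 to 0.75, and within the parts of the sample numbers, with r from 0.41 to 0.82. Leaving out the 2 mice whose marker mean lay farthest from the middle, r was 0.62 for Cp, 0.67 for Emp1 and 0.53 for Vim. Gfap itself had r = 0.40 with this mean and C4b r = 0.35, and neither passed after adjustment. These markers and astrocyte RNA were measured in the same tissue pieces, and how much of the signal of Emp1, Cp and Vim came from astrocytes was not tested.

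Against the choroid plexus marker mean 0 of 34 relations passed after adjustment. The highest were Id4 (r = 0.52, permutation p = 0.0033, adjusted p = 0.114, rho = 0.45), Clu (r = 0.39) and Emp1 (r = 0.33), and the lowest were Aldoc (r = -0.47, permutation p = 0.0087, adjusted p = 0.147, rho = -0.48), Megf10 (r = -0.41) and Acsbg1 (r = -0.35). At an unadjusted p under 0.05 stood 4 of the 34 relations, those of Id4, Aldoc, Megf10 and Clu. Correlations were computed for the astrocyte genes alone, so the share of all genes passing the same limit is not known.

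Since Gfap and Emp1 varied together, the start regions of their genes are shown with the letters TTCNNNGAA, the core that Stat factors are known to bind. The sequences are from RefSeq on mouse build GRCm38.p6, and the capitals mark the match, which reads the same pattern on both strands.
Gfap, chr11:102897184-102897212, minus strand, around the transcription start: atgggggtgcTTCCAGGAAgtcaggggca
Emp1, chr6:135362771-135362930, plus strand, upstream of the start: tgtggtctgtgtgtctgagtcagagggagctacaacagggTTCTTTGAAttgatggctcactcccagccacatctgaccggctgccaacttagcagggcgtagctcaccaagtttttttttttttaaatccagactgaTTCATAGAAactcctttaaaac
The Gfap match begins 2 bases before the transcription start and runs across it, and the first of the Emp1 matches begins 120 bases before it, while a second listed start window of Emp1 held none. Windows of 300 bases around the start were at hand for 26 of the 34 measured genes. For C4b, which also varied with Gfap, no window was at hand. The letters were found in 2 of 11 reactive genes (Gfap and Emp1) and in 4 of 15 homeostatic genes (Aldoc, Ntsr2, Acsbg1 and Pla2g7), beside 9.55% of 27025 mouse genes. A match of letters is a description, and binding was not measured.

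The samples carry serial numbers from 1 to 30 that alternate between the groups, and earlier results of these data had shown a shift along them. Each difference was therefore also read in numbers 1 to 16 (8 and 8 mice) and 17 to 30 (7 and 7 mice). The cut after number 16 was itself taken from those earlier results. Mertk lay higher in resistant mice in both parts, by 0.13 and 0.27, and Megf10 by 0.20 and 0.12. Ndrg2 lay lower in both, with differences of -0.10 and -0.20, as did Gfap, with -0.15 and -0.11. Clu differed by -0.03 in the first part and by -0.17 in the second.

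Several reactive genes had unlike differences in the parts. Serpina3n differed by 0.42 (unadjusted p = 0.0002, adjusted p = 0.411) in numbers 1 to 16 and by -0.04 in 17 to 30, the part that holds resistant mouse 12. C4b differed by 0.33 and -0.28, Osmr by -0.38 and 0.10, and Nes by 0.001 and 0.39. The difference between the parts was tested as an interaction in limma, an analysis added after seeing the data. It gave an unadjusted p of 0.0163 for C4b, 0.0209 for Osmr, 0.0228 for Nes and 0.0469 for Serpina3n, each with an adjusted p of 0.999. These are 4 of the 41 astrocyte probes, where 4.39% of all probes passed the same limit, and 0 of all probes passed after adjustment. What the sample number stands for is not given in the sources used here.

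**Figure D4:**
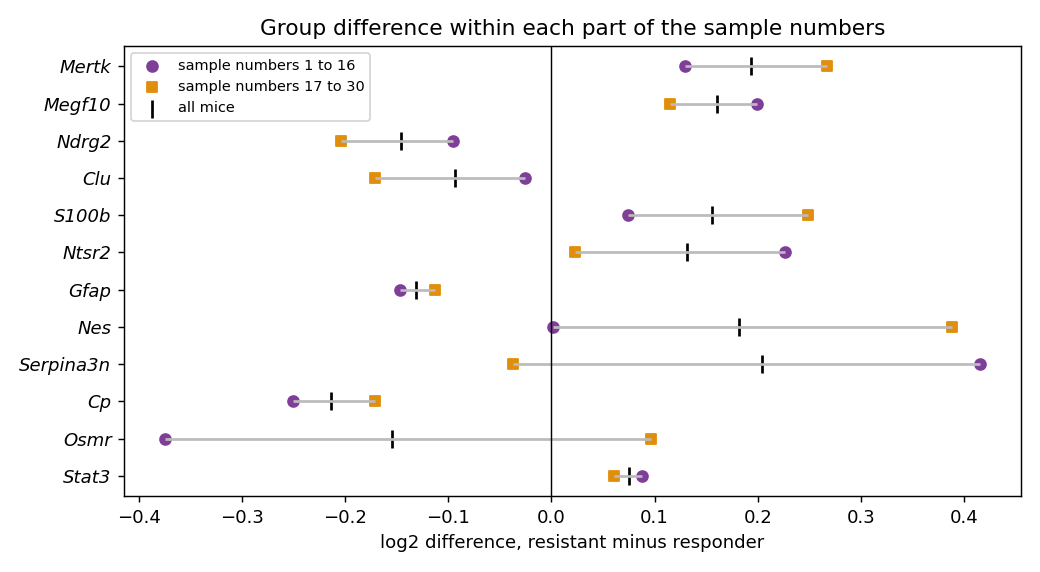
Log2 difference between resistant and responder mice (x axis) for 12 named astrocyte genes in sample numbers 1 to 16 (purple circles, 8 and 8 mice), 17 to 30 (orange squares, 7 and 7 mice) and all 30 mice (black ticks). Serpina3n runs from 0.42 to -0.04 and Osmr from -0.38 to 0.10, while all other genes shown keep their sign, Nes with only 0.001 in the first part. The parts are made of the same mice as the whole, so a kept sign is no separate support.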

How the data were processed

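Labelled cRNA from 30 hippocampal RNA samples was hybridised to Illumina bead arrays, and the labels give 1 mouse per sample. The authors deposited, per the file headers, a table of log2 signals before normalisation, in which each of the 25697 probes also has a detection p-value, and a second table of processed log2 values. The latter matched quantile-normalised log2 signals. The submitters' processing notes name lumi.

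The log2 signals were made linear again, then background-corrected and quantile-normalised by neqc (offset 16) in limma 3.58.1 (R 4.3.3). Probes with a detection p under 0.05 on at least 15 arrays were kept. The group comparison used lmFit and eBayes (trend on intensity) without covariates, with Benjamini-Hochberg adjustment over all 12588 kept probes. A positive log2 difference means a higher mean in resistant mice. Between 12330 and 13223 probes were detected per array, and the number of arrays limits the precision. The fit was tested on simulated data.

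Symbols came from the platform annotation, and a gene is represented by its brightest kept probe. Named are Gfap, Aqp4 and Aldh1l1, member probes past an unadjusted p of 0.05, the 6 homeostatic and 6 reactive genes of smallest p, 4 genes of each further astrocyte list, and the extremes of the correlations, of the spread and of brightness. The other members are named once for completeness, and lists of other cell types are given by counts and by means or median differences. Mice or genes singled out beyond this were chosen after their values were seen. The members and lists were chosen with earlier results of these data known. Alternatives covered background correction, scaling, the authors' processed values, filters, array weights, a robust prior, the replicate number as a block, cell type covariates, the sample numbers and leaving out each mouse.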

Additional observations from a re-analysis of the deposited data

How the results depend on the processing

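Across 15 alternatives and 30 fits that each left out 1 mouse, 0 astrocyte probes passed an adjusted p of 0.05. The number lower at an unadjusted p under 0.05, 2 in the report, was 0 with median scaling, 1 with the choroid plexus covariate, 4 with oligodendrocyte and endothelial covariates, and 1 in sample numbers 1 to 16 alone. Of all 12588 probes 229, 378, 431 and 338 lay lower in these settings, in that order, against 416 in the report. The number higher, 3 in the report, ran from 2 to 4, and from 2 to 5 with 1 mouse left out, reaching 5 without resistant mouse 2. Over all probes the number higher, 535 in the report, ran from 398 to 924. With 1 mouse left out it ran from 437 to 610, and it was 562 without resistant mouse 2. The median difference of the reactive genes ran from -0.05 to 0.05, and from -0.02 to 0.07 with 1 mouse left out, and so had no stable sign, and that of the homeostatic genes ran from 0.003 to 0.05 and from 0.005 to 0.04. In sample numbers 17 to 30 alone Serpina3n was at -0.038 and Osmr at 0.10, against their sign in all mice. C4b, at 0.05 in all mice, was at -0.28 there. The other 13 of the 15 probes followed through all alternatives kept their sign in each and with each mouse left out, and the remaining members were not followed. The cause of these shifts was not tested.

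With median scaling 924 probes of all genes lay higher and 229 lower at an unadjusted p under 0.05, against 535 and 416 in the report, and the unadjusted p was 0.0574 for Ndrg2 and 0.122 for Clu. With oligodendrocyte and endothelial covariates that of Megf10 was 0.0911. Some genes not under 0.05 in the report were so in some alternatives. These were Nes in 5 of 14, Serpina3n in 3 of 15 and S100b in 2 of 15. Gfap and Cp were under 0.05 in 1 of 15 and Osmr in 1 of 14, and Aqp4, Aldh1l1, Ntsr2 and Stat3 in 0 of 15. The stricter filter left no value for Nes, Osmr and the dim Slc14a1 probe. With the replicate number as a block the counts were 3 higher and 2 lower, where 616 of all 12588 probes lay higher and 514 lower. The medians in that fit were 0.02 and 0.03, and the unadjusted p of Serpina3n was 0.0355 (adjusted p = 0.517). Deviations of same-numbered mice from their group means correlated between -0.32 and 0.28, with a median of 0.11 and 8 of 15 over 0.1. Of the resistant mice 4 of 15 correlated best with their own number. Same-numbered mice also hold neighbouring sample numbers, such as 1 and 2. Whether same-numbered mice deviated together was not tested. The labels do not say that the numbers pair mice, so they were not taken as pairs.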
